A study of Homo sapiens with 6 samples.

Results

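The transcripts of 10 genes around the coactivator YAP were followed in U87-MG, a long-established line of human glioblastoma cells. The genes were chosen by name out of the 61806 genes in the deposited table. They are the coactivator genes YAP1 and WWTR1 (which encodes TAZ), the DNA-binding partners TEAD1, TEAD2, TEAD3 and TEAD4, and the target genes CCN1, CCN2, ANKRD1 and AMOTL2. Total RNA was sequenced in 6 libraries of cultured cells. The negative control (NC) had 3 libraries with the genotype given as wildtype, and the other 3, called siRNA-labelled here, were labelled GRIK1 siRNA with the genotype given as GRIK1 knockdown. GRIK1 encodes a kainate receptor subunit that responds to glutamate, and the comparison asks which genes change when GRIK1 is knocked down. The labels give no time after transfection. They do not say whether the numbers 1, 2 and 3 stand for separate cultures or, in the knockdown group, for different siRNA sequences. The design text speaks of an shRNA where the sample titles speak of an siRNA. The paper that reported these data states that siRNA1, its most efficient sequence, served for the experiments after the knockdown test. It does not say whether these libraries came from separate cultures. The p-values therefore measure only the spread between these libraries, which may be technical.

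YAP and TAZ are transcriptional coactivators that carry no DNA-binding domain of their own. In the Hippo pathway the kinases MST1 and MST2 (STK4 and STK3) activate LATS1 and LATS2, which phosphorylate YAP and TAZ and keep them in the cytoplasm bound to 14-3-3 proteins. When the kinases are quiet, as in spread cells on a stiff matrix, YAP and TAZ enter the nucleus, bind a TEAD factor and raise the transcription of genes such as CCN1 and CCN2. Much of this control acts on the proteins, so the RNA of YAP1 and of the TEAD genes need not follow YAP activity, and their target genes are commonly read in its place. In glioblastoma the pathway is known for its links to invasion and to the mesenchymal state.

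TEAD factors recognise the letters CATTCC, or GGAATG on the other strand, and CCN2 and ANKRD1 are the standard examples of targets with such sites close to the start of transcription. The letters were searched on both strands in RefSeq promoters on GRCh38.p14, each holding 250 bases before and 50 bases after a start site. The table held 10 promoter entries of 7 of the 10 genes, which left CCN1, TEAD1 and TEAD4 unmatched. The 250 bases upstream of the start site are shown for the 4 genes with a match, 5′ to 3′, because 3 of them are targets and YAP1 is the coactivator itself. They are CCN2 at chr6:131951373-131951622 (-), ANKRD1 at chr10:90921088-90921337 (-), AMOTL2 at chr3:134374448-134374697 (-) and YAP1 at chr11:102110197-102110446 (+), and the capitals mark the motif.
CCN2: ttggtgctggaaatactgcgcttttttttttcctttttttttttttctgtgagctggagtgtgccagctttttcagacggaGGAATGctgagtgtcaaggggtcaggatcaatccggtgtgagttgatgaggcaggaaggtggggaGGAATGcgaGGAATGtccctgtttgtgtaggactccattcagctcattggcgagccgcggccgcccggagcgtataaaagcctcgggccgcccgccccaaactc
ANKRD1: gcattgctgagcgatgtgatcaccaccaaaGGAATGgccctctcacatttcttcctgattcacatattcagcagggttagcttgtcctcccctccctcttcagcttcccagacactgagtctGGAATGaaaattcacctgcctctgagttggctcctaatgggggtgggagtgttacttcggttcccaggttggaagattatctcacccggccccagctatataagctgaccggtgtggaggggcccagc
AMOTL2: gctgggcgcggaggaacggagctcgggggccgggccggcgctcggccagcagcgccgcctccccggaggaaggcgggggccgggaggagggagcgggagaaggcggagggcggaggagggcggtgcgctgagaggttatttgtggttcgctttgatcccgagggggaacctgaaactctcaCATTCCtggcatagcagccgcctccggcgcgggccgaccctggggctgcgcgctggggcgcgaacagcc
YAP1: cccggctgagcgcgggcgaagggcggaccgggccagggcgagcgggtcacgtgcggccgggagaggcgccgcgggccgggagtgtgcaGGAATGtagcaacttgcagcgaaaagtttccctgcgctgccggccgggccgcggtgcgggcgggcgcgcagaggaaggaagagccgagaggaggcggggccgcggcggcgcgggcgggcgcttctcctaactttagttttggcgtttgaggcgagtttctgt
CCN2 held 3 copies of GGAATG, which began at -169, -104 and -95 with the start site counted as 0. ANKRD1 held 2 copies of GGAATG, at -220 and -128. AMOTL2 held CATTCC at -69 of the more downstream of its 2 start sites, and no match at the other. YAP1 held GGAATG at -162. The motif was not found in the entries of WWTR1, TEAD2 and TEAD3, which says only that these letters are not in those windows. Of all 35116 promoters, 14.03% held the motif and 1.37% held at least 2 copies, which is the share that CCN2 and ANKRD1 belong to. Counted by gene, 4 of the 7 matched genes held it against 16.7% of all 27305 genes. A match is a description of the sequence and not evidence of binding in these cells.

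The total counts ranged from 11099909 to 14006968 per library. NC library 3 stood apart from the other 5. Its correlation with the other NC libraries over the tested genes (Pearson, log2 CPM) was 0.964 and 0.968, while NC libraries 1 and 2 correlated at 0.990 and the siRNA-labelled libraries at 0.989 to 0.992 among themselves. Genes are not independent replicates, so these values only describe the libraries. The share of counts on ribosomal protein genes was 9.37% in NC library 3 and 4.79% to 5.497% in the others. The median absolute log2 difference per gene was 0.507 between NC library 3 and the mean of NC libraries 1 and 2, 0.248 between the mean of the siRNA-labelled libraries and the same mean, and 0.124 between NC libraries 1 and 2. The fold changes of the tested genes are therefore given with and without NC library 3. The fit without NC library 3 rests on 2 NC libraries that lie close together. Its common dispersion, the spread that edgeR estimates between libraries, was 0.00298, against 0.0391 with all 6 libraries. Small SE and adjusted p-values in that fit depend on those 2 libraries. The targeted gene, GRIK1, had counts of 18, 9 and 8 in NC and of 15, 20 and 20 in the siRNA-labelled libraries, so it was not lower there (difference on log2(FPKM + 1) of 0.12, two-sided exact permutation test, p = 0.4, where 3 against 3 libraries cannot give less than 0.1). That difference was 0.064 without NC library 3. The paper separately reports efficient GRIK1 knockdown in U87-MG cells, with relative GRIK1 levels in its own figure. Of 9 markers of a glial or mesenchymal glioblastoma line, VIM, CD44, S100A6 and TNC were at a mean of at least 1 FPKM, while GFAP was at 0.28 FPKM or less, SOX2 at 0.12 or less and S100B at 0.04 or less. TNC was at 24.78 FPKM in NC library 3 and at 144.24 to 163.03 in the others. Of 4 leukocyte markers CD3E and AIF1 had 0 counts in each library and PTPRC at most 0.03 FPKM, while CD68 was at 2.11 to 4.06 FPKM. Of 3 neuronal markers SNAP25 was at 1.45 to 2.15 FPKM, and the summed level of the list was 1.88 to 2.81 FPKM in NC and 2.47 to 2.62 in the other group. Each of 3 endothelial markers stayed under 0.1 FPKM, and the summed level of 4 epithelial markers was 5.38 to 6.39 FPKM in the NC group and 4.58 to 5.81 in the other.

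The coactivator transcripts were close to level between the groups. FPKM is the count scaled to the exonic length of the gene and to the total count of the library, so it can be compared between genes. YAP1 (ENSG00000137693, chromosome 11 from 102110447 to 102233424) had 19.89, 21.18 and 22.32 FPKM in NC libraries 1 to 3, against 19.34, 22.04 and 20.32 FPKM in siRNA-labelled libraries 1, 2 and 3. The groups overlapped over most of their range, with a mean of 21.1 ± 1.22 FPKM in NC and 20.6 ± 1.37 FPKM in the other group (SD, n = 3 each). The fold changes here and below came from the quasi-likelihood test of edgeR on the counts, in the direction GRIK1 siRNA over NC, with Benjamini-Hochberg adjustment over the 15870 tested genes. For YAP1 the log2 fold change was -0.13 (standard error, SE, 0.13, 95% interval -0.45 to 0.18, adjusted p = 0.557 from edgeR). Without NC library 3 it was -0.02 (interval -0.15 to 0.10, adjusted p = 0.810).

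WWTR1 (ENSG00000018408, chromosome 3 from 149517235 to 149736714) had 11.41, 11.16 and 9.62 FPKM in the NC libraries and 13.03, 11.92 and 11.74 FPKM in the siRNA-labelled libraries. The latter 3 lay above the former 3, on FPKM as well as on normalized CPM (counts scaled to a TMM-corrected library size). On normalized CPM such a separation held for 38.5% of all tested genes and for 2 of the 9 tested genes of the set, WWTR1 and CCN2. The log2 fold change of WWTR1 was 0.11 (SE 0.11, 95% interval -0.14 to 0.35, adjusted p = 0.559 from edgeR), and 0.09 without NC library 3 (interval -0.03 to 0.22, adjusted p = 0.261). WWTR1-AS1, which overlaps WWTR1 on the opposite strand, had 4 to 14 counts per library against 1037 to 1348 for WWTR1. The ratio of WWTR1 to YAP1 FPKM, which does not depend on the scaling between libraries, was 0.574, 0.527 and 0.431 in NC and 0.674, 0.541 and 0.578 in the other group. These overlapped, and the log2 ratio differed by 0.23 (two-sided exact permutation test, p = 0.2). Without NC library 3 the difference was 0.11.

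**Figure D1:**
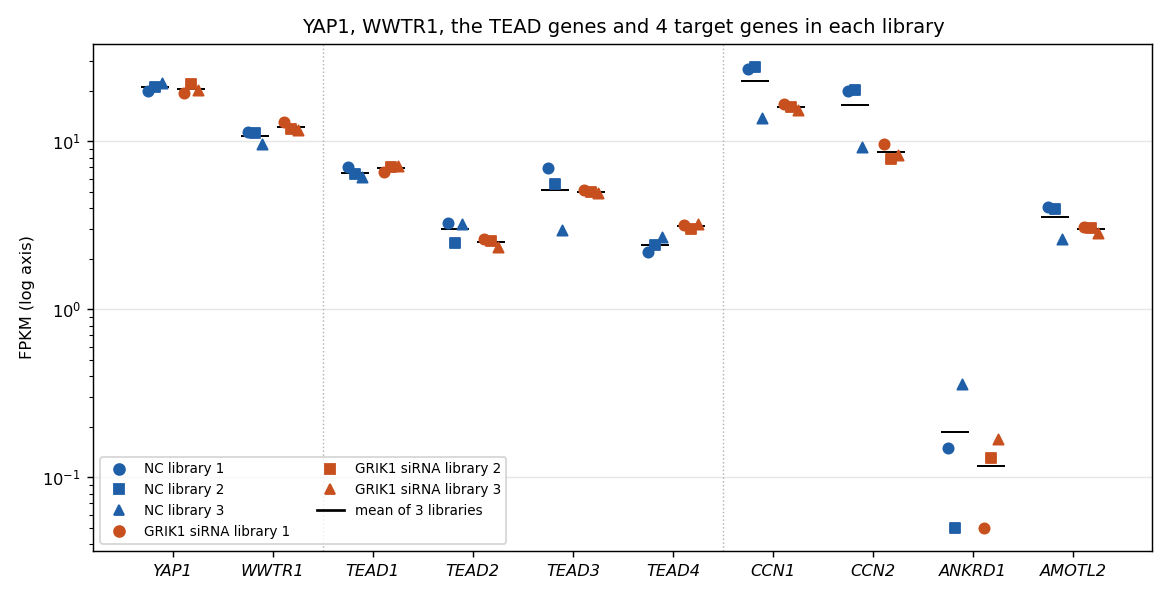
FPKM on a log axis for each of the 10 genes, with a point per library (blue for NC, orange for GRIK1 siRNA, symbols for library 1, 2 and 3) and a line at the mean of 3 libraries. CCN1, CCN2, AMOTL2 and TEAD3 show NC library 3 below NC libraries 1 and 2, and ANKRD1 lies under 0.5 FPKM in every library.

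The 4 TEAD genes were all expressed, with TEAD1 the most abundant on average in both groups. TEAD1 (ENSG00000187079, chromosome 11 from 12674421 to 12944737) had 6.99, 6.43 and 6.14 FPKM in the NC libraries and 6.57, 7.0 and 7.17 FPKM in the siRNA-labelled libraries. Its log2 fold change was -0.0014 (SE 0.11, 95% interval -0.26 to 0.25, adjusted p = 0.995 from edgeR) and 0.02 without NC library 3, with a sign that changed between settings. The TEAD1 levels of the groups overlapped.

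TEAD2 (ENSG00000074219, chromosome 19 from 49340595 to 49362457) had 3.27, 2.47 and 3.23 FPKM in NC and 2.63, 2.55 and 2.34 FPKM in the other group. NC library 2 lay inside the range of the siRNA-labelled libraries, and the log2 fold change was -0.35 (SE 0.19, adjusted p = 0.284 from edgeR), or -0.22 (adjusted p = 0.325) without NC library 3. TEAD2 shares 2741 bases with CD37 on the opposite strand, which had 17, 20 and 16 counts in NC and 20, 49 and 40 in the other group, against 82 to 135 counts for TEAD2. Whether the counting used strand is not given in the sources used here. How far the overlap affects the TEAD2 counts is therefore not known, and the CD37 counts do not measure it.

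TEAD3 (ENSG00000007866, chromosome 6 from 35473597 to 35497079) was the TEAD gene that varied most within a group. Its levels were 6.97, 5.54 and 2.95 FPKM in the NC libraries and 5.11, 5.02 and 4.92 FPKM in the siRNA-labelled libraries. The 3 siRNA-labelled libraries thus lay between NC library 3 and NC libraries 1 and 2. With all 6 libraries the log2 fold change was -0.10 (SE 0.25, adjusted p = 0.821 from edgeR), and without NC library 3 it was -0.34 (SE 0.12, adjusted p = 0.0287). DESeq2 without that library gave an adjusted p of 0.106 for TEAD3.

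TEAD4 (ENSG00000197905, chromosome 12 from 2959330 to 3040676) had 2.18, 2.41 and 2.70 FPKM in NC and 3.16, 3.0 and 3.23 FPKM in the other group. The groups were apart on FPKM but not on normalized CPM, where NC library 3 at 6.92 lay above siRNA-labelled library 2 at 6.64. The log2 fold change of TEAD4 was 0.26 (SE 0.19, adjusted p = 0.402 from edgeR), and 0.42 (SE 0.17, adjusted p = 0.0701) without NC library 3. TEAD4 had 55 to 97 counts per library, the fewest of the TEAD genes in sum.

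The summed TEAD level was 17.1 ± 2.21 FPKM in NC and 17.6 ± 0.095 FPKM in the siRNA-labelled libraries (SD, n = 3 each). TEAD1 made up 36.0%, 38.2% and 40.9% of that sum in NC and 37.6%, 39.8% and 40.6% in the other group, a difference of 0.999 percentage points (two-sided exact permutation test, p = 0.7), and of 2.26 points without NC library 3. The share of TEAD3 was 35.9% and 32.9% in NC libraries 1 and 2, 19.6% in NC library 3, and 27.9% to 29.3% in the siRNA-labelled libraries. TEAD4 took 11.2%, 14.3% and 18.0% in the NC libraries and 17.1% to 18.3% in the others. The SD of each of these shares was larger among the NC libraries than among the siRNA-labelled libraries.

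The target genes CCN1 and CCN2 encode secreted matricellular proteins that bind integrins, and both were high in NC libraries 1 and 2 only. CCN1 (ENSG00000142871, chromosome 1 from 85580761 to 85584589) had 27.11, 27.71 and 13.69 FPKM in the NC libraries and 16.79, 15.96 and 15.27 FPKM in the siRNA-labelled libraries. NC library 3 was thus the lowest of the 6 on FPKM. With all 6 libraries the log2 fold change of CCN1 was -0.58 (SE 0.22, 95% interval -1.09 to -0.06), with an unadjusted p of 0.0323 and an adjusted p of 0.165 from edgeR. CCN1 fell by 0.80 on the log2 scale without NC library 3 (SE 0.06, adjusted p = 2.87e-08 from edgeR). Lower RNA per cell and fewer cells that express a gene cannot be told apart in such bulk libraries.

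CCN2 (ENSG00000118523, chromosome 6 from 131948176 to 131951372), whose promoter held 3 copies of the motif, had 19.96, 20.30 and 9.25 FPKM in the NC libraries and 9.70, 7.90 and 8.29 FPKM in the others. On FPKM the groups overlapped, since NC library 3 lay below siRNA-labelled library 1. On normalized CPM they were apart, at 46.1, 47.4 and 24.4 against 22.1, 18.0 and 19.0. The log2 fold change of CCN2 was the largest of the set in size, at -0.997 (SE 0.26, 95% interval -1.59 to -0.40), with an unadjusted p of 0.00517 and an adjusted p of 0.0782 from edgeR. It passed in DESeq2 on the same 6 libraries (adjusted p = 0.00876) and in edgeR without the filter on low genes (adjusted p = 0.00564). CCN2 fell by 1.25 on the log2 scale without NC library 3 (SE 0.10, adjusted p = 3.41e-08 from edgeR). CCN2-AS1, on the opposite strand, had 0 to 3 counts per library.

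AMOTL2 (ENSG00000114019, chromosome 3 from 134355347 to 134375479) encodes an angiomotin family protein that binds YAP and restrains it. It had 4.05, 3.94 and 2.62 FPKM in the NC libraries and 3.10, 3.04 and 2.86 FPKM in the others, again with NC library 3 the lowest on FPKM. The log2 fold change of AMOTL2 was -0.31 (SE 0.15, adjusted p = 0.252 from edgeR) with all 6 libraries. AMOTL2 fell by 0.44 on the log2 scale without NC library 3 (SE 0.10, adjusted p = 0.00210 from edgeR).

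ANKRD1 (ENSG00000148677, chromosome 10 from 90912096 to 90921087), a muscle ankyrin repeat protein and a standard YAP target, was barely detected in this line. It had 3, 1 and 9 counts in the NC libraries and 1, 3 and 4 counts in the siRNA-labelled libraries, which is 0.05 to 0.36 FPKM, and it was left out by the filter of a mean of 0.5 FPKM. Scaled to the total counts, its summed count in the siRNA-labelled libraries was at 0.583 of the NC level, with exact 95% bounds of 0.210 and 1.52, for counting error alone. No difference was detectable at this depth. Without the filter, the fitted log2 fold change of ANKRD1 was -0.86 (SE 0.87, adjusted p = 0.620 from edgeR).

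With all 6 libraries, 0 of the 9 tested genes passed at an adjusted p under 0.05 from edgeR, where 3.09% of the 15870 tested genes did. CCN1 and CCN2 had an unadjusted p under 0.05, as had 3987 of all tested genes. The fold change was below 0 for 7 of the 9, as it was for 8158 of the 15870 tested genes. The 7 include TEAD1 at -0.0014 and TEAD3 at -0.10, whose signs changed between settings. The median over the 9 was -0.13 against -0.02 over all tested genes. DESeq2 called 1 of the 9, CCN2, and 10.6% of all tested genes, and edgeR without the filter also called CCN2 alone among all 10, and 4.12% of 34080 genes. Without NC library 3, edgeR called 4 of the 9, TEAD3, CCN1, CCN2 and AMOTL2, and DESeq2 called the latter 3. The background of these counts was 35.2% of the tested genes for edgeR and 26.5% for DESeq2. The 4 were all lower, against 18.3% of tested genes that edgeR called lower. The median over the 9 was then -0.22, against 0.01 over all tested genes.

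**Figure D2:**
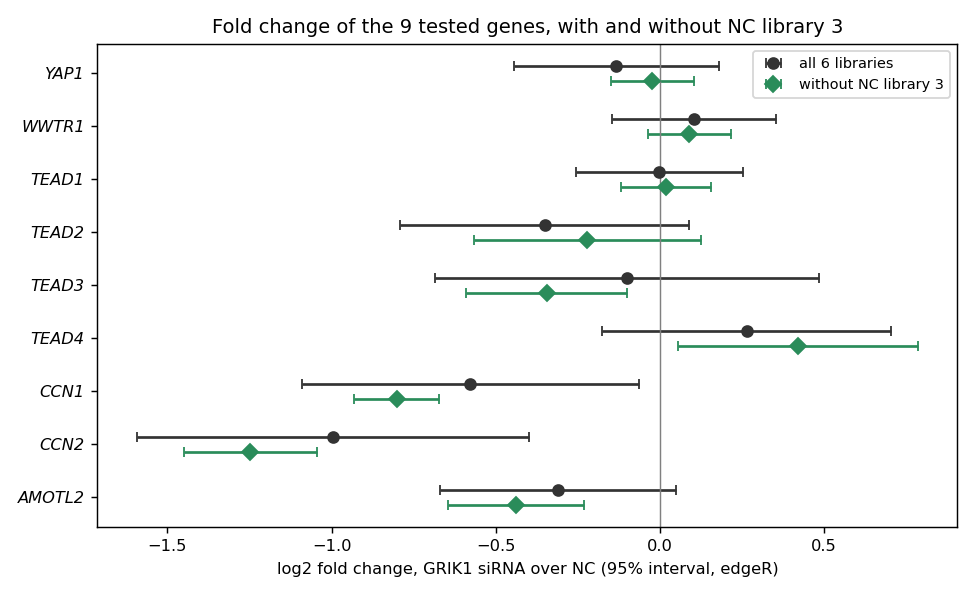
Log2 fold change of GRIK1 siRNA over NC with its 95% interval from edgeR, for the 9 tested genes, with all 6 libraries (black circles) and without NC library 3 (green diamonds). The intervals of CCN1, CCN2, AMOTL2 and TEAD3 lie below 0 without NC library 3, that of TEAD4 lies above 0, and with all 6 libraries those of CCN1 and CCN2 lie below 0.

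The position of NC library 3 differed from gene to gene. Relative to the mean of NC libraries 1 and 2, on the scale of log2 normalized CPM, CCN1 was -0.82 in NC library 3 and -0.80 in the mean of the siRNA-labelled libraries. AMOTL2 was at -0.42 and -0.44 in the same order, and TEAD4 at 0.41 and 0.41. For these 3 genes NC library 3 was about as far from the other NC libraries as the siRNA-labelled libraries were. CCN2 was at -0.94 in NC library 3 and at -1.25 in the siRNA-labelled libraries. TEAD3 was further away in NC library 3, at -0.88 against -0.33. YAP1, at 0.30 against -0.03, and TEAD2, at 0.36 against -0.21, were higher in NC library 3 and not in the siRNA-labelled libraries. Both axes subtract the same 2 libraries, so the position of a gene along them is a description without a test.

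**Figure D3:**
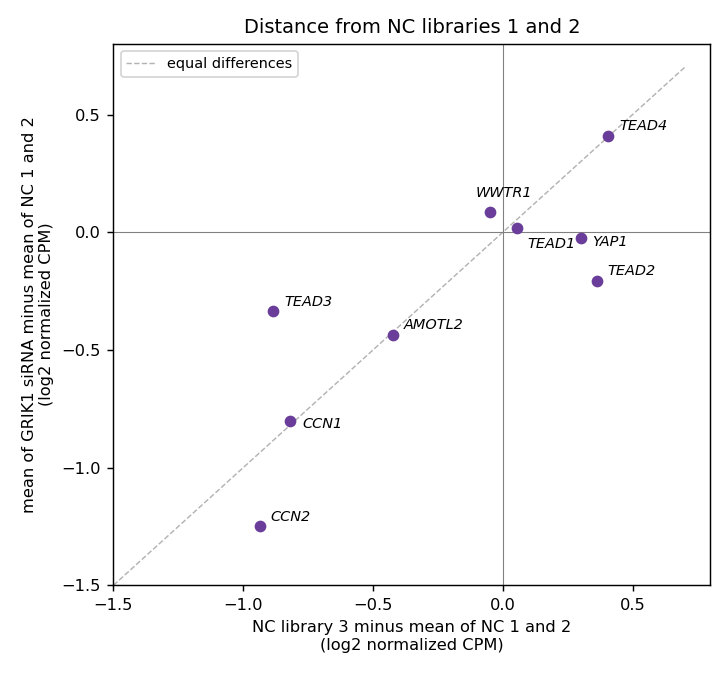
Difference from the mean of NC libraries 1 and 2 in log2 normalized CPM, for NC library 3 (horizontal axis) and for the mean of the 3 siRNA-labelled libraries (vertical axis), with a point for each of the 9 tested genes. CCN1, AMOTL2 and TEAD4 lie on the dashed line of equal differences, CCN2 below it and TEAD3 above it.

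CCN1 and CCN2 did not keep the same proportion to each other. The ratio of CCN1 to CCN2 FPKM was 1.36, 1.37 and 1.48 in NC and 1.73, 2.02 and 1.84 in the siRNA-labelled libraries. The groups did not overlap, and NC library 3 lay with the NC libraries. The log2 ratio differed by 0.41 (two-sided exact permutation test, p = 0.1, the smallest that 3 against 3 libraries can give) and by 0.45 without NC library 3. A ratio within a library shows unequal change and does not say which of the 2 genes moved.

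**Figure D4:**
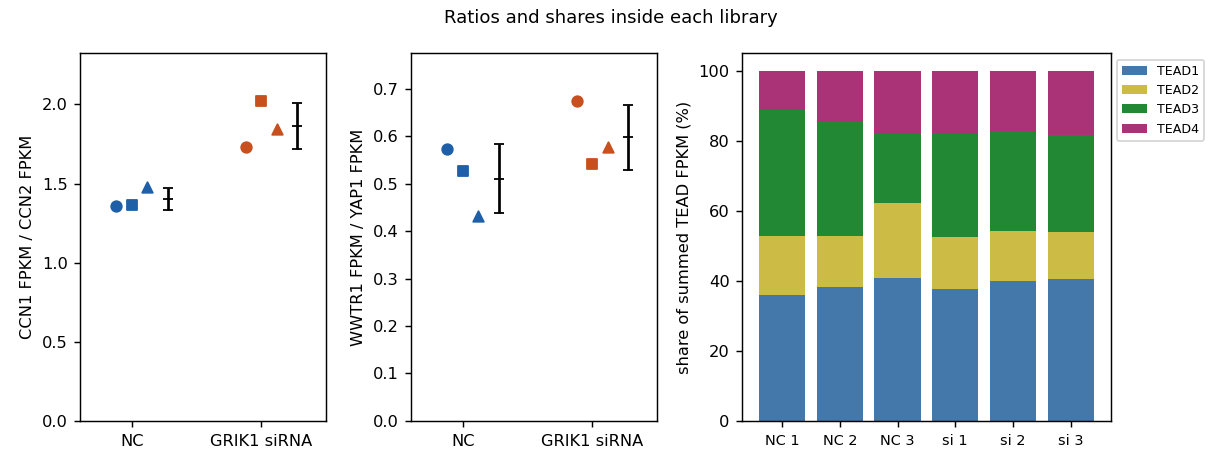
Left and middle, the ratio of CCN1 to CCN2 FPKM and of WWTR1 to YAP1 FPKM per library, with mean and SD of the 3 libraries in black, and right, the share of each TEAD gene in the summed TEAD FPKM per library in percent. The CCN1 to CCN2 ratio is 1.36 to 1.48 in NC and 1.73 to 2.02 in the other group, and the TEAD3 share is lowest in NC library 3 at 19.6%.

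By mean FPKM the order in NC was CCN1, YAP1, CCN2, WWTR1, TEAD1, TEAD3, AMOTL2, TEAD2, TEAD4 and ANKRD1. In NC the ranges of neighbours in this order overlapped, except those of WWTR1 and TEAD1 and those of TEAD4 and ANKRD1. In the siRNA-labelled libraries the order was YAP1, CCN1, WWTR1, CCN2, TEAD1, TEAD3, TEAD4, AMOTL2, TEAD2 and ANKRD1, and only TEAD4 and AMOTL2 overlapped as neighbours. YAP1 at 19.34 to 22.04 FPKM thus stood above CCN1 at 15.27 to 16.79 FPKM in the siRNA-labelled libraries, while CCN1 in NC libraries 1 and 2 stood above YAP1 in every library.

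Other genes of the pathway were taken from lists fixed by name, where LATS2 and PTPN14 stand in 2 lists each. Of the Hippo kinases and scaffolds, 14 of 15 genes were tested. In edgeR 0 of the 14 passed in either direction, where 3.09% of all tested genes did. An unadjusted p under 0.05 was found for 7 of the 14, against 3987 of all 15870 tested genes. The fold change was positive for 7 and negative for 7, and the median log2 fold change was 0.04. The ends of this list were LATS1, a kinase that phosphorylates YAP, at 0.45 (adjusted p = 0.127 from edgeR) and MOB1A, an activating partner of the LATS kinases, at -0.60 (adjusted p = 0.0996). DESeq2 on the 6 libraries called 1 of the 14, MOB1A, as lower (adjusted p = 0.0338), where 10.6% of all tested genes were called. LATS1 had 5.81, 5.81 and 3.79 FPKM in NC and 7.26, 7.17 and 7.80 in the other group. MOB1A had 29.99, 29.32 and 38.24 FPKM in NC and 22.53, 23.65 and 22.88 in the other group. NC library 3 thus lay on the far side of NC libraries 1 and 2 from the siRNA-labelled libraries, the opposite of its place for CCN1. Without NC library 3, 4 of the 14 passed higher and 6 lower, where 16.9% of all tested genes passed higher and 18.3% lower, with LATS1 at 0.33 (adjusted p = 0.00145) and MOB1A at -0.39 (adjusted p = 6.60e-06), and the median was -0.06.

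Of the proteins that restrain YAP, TAZ or TEAD or act as cofactors, 9 of 13 genes were tested and 0 passed in edgeR or in DESeq2. Across all tested genes 3.09% passed in edgeR and 10.6% in DESeq2. An unadjusted p under 0.05 in edgeR was found for 1 of the 9, against 3987 of all 15870 tested genes. The fold change was positive for 2 and negative for 7, where 8158 of all tested genes had a negative one, and the median was -0.26. TJP1, a tight junction scaffold, was highest at 0.41 (adjusted p = 0.224 from edgeR). VGLL4, which competes with YAP for TEAD, was lowest at -0.50 (adjusted p = 0.155). VGLL4 had 7.05, 6.63 and 9.15 FPKM in NC and 6.01, 5.58 and 5.73 in the other group. The median moved to -0.07 without NC library 3, where 2 of the 9 genes passed higher and 2 lower against 35.2% of all tested genes, TJP1 at 0.22 (adjusted p = 0.00629) and VGLL4 at -0.27 (adjusted p = 0.00974) among them.

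Other YAP and TAZ target genes went in both directions. Of 18 genes in that list 16 were tested, 12 with a positive and 4 with a negative fold change. Across all 15870 tested genes 7712 had a positive and 8158 a negative one. In edgeR on the 6 libraries 2 of the 16 passed, both higher, where 3.09% of all tested genes passed in either direction. For 10 of the 16 the unadjusted p was under 0.05 in edgeR, against 3987 of all 15870 tested genes. DESeq2 on the same libraries called 4 higher (AXL, IGFBP3, GADD45A and CCDC80) and 3 lower (RBMS3, NT5E and TGFB2), against 10.6% of all tested genes. AXL, a receptor tyrosine kinase, rose from 24.6 ± 1.62 to 37.5 ± 1.80 FPKM (SD, n = 3 each), with 25.80, 25.18 and 22.74 FPKM in NC and 39.10, 37.87 and 35.55 FPKM in the other group. Its log2 fold change was 0.52 (SE 0.11, adjusted p = 0.0489 from edgeR). IGFBP3, a binding protein of insulin-like growth factors, rose from 102.8 ± 16.3 to 172.1 ± 1.87 FPKM, with 111.78, 112.55 and 83.92 FPKM in NC and 174.12, 171.72 and 170.43 FPKM in the other group. The log2 fold change of IGFBP3 was 0.67 (SE 0.13, adjusted p = 0.0449 from edgeR). Both calls were lost in the fits that left out any 1 library other than NC library 3, where 0 genes passed at all. With the replicate block both were lost as well, at adjusted p = 0.150 for AXL and 0.136 for IGFBP3 from edgeR. AXL was also lost with no filter (adjusted p = 0.0900), and IGFBP3 in limma-trend on log2(FPKM + 1) (adjusted p = 0.0524) and on log2(FPKM + 0.1) (adjusted p = 0.0580). Both held without that library, at 0.53 for AXL (adjusted p = 5.86e-07) and 0.59 for IGFBP3 (adjusted p = 4.46e-08). The median of the list was 0.33, and 0.22 without NC library 3.

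Without NC library 3, 8 of these 16 target genes passed higher and 4 lower, where 35.2% of all tested genes passed. The 8 were AXL, IGFBP3, CCDC80, DOCK5, PTPN14, GADD45A, ASAP1 and MYOF. Their log2 fold changes in that fit were 0.53, 0.59, 0.48, 0.43, 0.42, 0.39, 0.20 and 0.18 in this order. The 4 lower genes were FJX1, NT5E, TGFB2 and RBMS3. Apart from AXL and IGFBP3, the genes of both directions were named after their values were seen. In that fit RBMS3 was at -1.01, TGFB2 at -0.83, FJX1 at -0.54 and NT5E at -0.33 on the log2 scale. With all 6 libraries RBMS3 had a log2 fold change of -0.88 (adjusted p = 0.0536 from edgeR), TGFB2 -0.70 (adjusted p = 0.0959), NT5E -0.50 (adjusted p = 0.127) and FJX1 -0.43 (adjusted p = 0.131). RBMS3 passed in edgeR on the 6 libraries with no filter (adjusted p = 0.0138) and with filterByExpr (adjusted p = 0.0495). DOCK5 had the highest log2 fold change of the list with all 6 libraries, at 0.72 (adjusted p = 0.175 from edgeR). TGFB2, a secreted growth factor, had 1.62, 1.60 and 1.05 FPKM in NC and 0.96, 1.01 and 0.80 FPKM in the other group. NT5E, the ectonucleotidase CD73, had 212.30, 214.10 and 255.96 FPKM in NC and 170.86, 174.01 and 171.28 FPKM in the other group. For TGFB2, NC library 3 lay on the side of the siRNA-labelled libraries, and for NT5E on the far side.

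The relatives of the target genes also went different ways. CCN4 (ENSG00000104415, chromosome 8 from 133191039 to 133231690) rose from 4.13, 3.91 and 3.95 FPKM in NC to 7.73, 7.16 and 7.42 FPKM, a log2 fold change of 0.81 (SE 0.12, adjusted p = 0.0292 from edgeR). Of 4 CCN relatives listed 2 were tested, and CCN4 was the one that passed in edgeR on the 6 libraries, where 3.09% of all tested genes did. CCN4 also passed as higher in DESeq2 on the 6 libraries (adjusted p = 1.07e-05), where 10.6% of all tested genes passed. In edgeR without the filter it passed as well (adjusted p = 0.0106), where 4.12% of 34080 genes did. On FPKM, NC library 3 lay inside the range of the other NC libraries for CCN4. On log2 normalized CPM it lay above both, at 0.15 over their mean. CCN4 stood at 0.86 without NC library 3 (adjusted p = 1.54e-06 from edgeR), a fit in which 35.2% of all tested genes passed. Its call was lost in the fits that left out any 1 of the other libraries and with the replicate block (adjusted p = 0.0946). CCN3 (ENSG00000136999, chromosome 8 from 119416446 to 119424434) had 28.02, 29.06 and 17.12 FPKM in NC and 15.63, 15.03 and 15.38 FPKM in the other group. NC library 3 was below NC libraries 1 and 2 but, unlike for CCN1, above the 3 siRNA-labelled libraries. The log2 fold change of CCN3 was -0.76 (SE 0.17, adjusted p = 0.0594 from edgeR). It passed as lower in DESeq2 on the 6 libraries (adjusted p = 0.00421) and in edgeR without the filter (adjusted p = 0.0116), and without NC library 3 CCN3 fell by 0.92 (adjusted p = 1.67e-08). ANKRD23, the tested gene of 2 relatives of ANKRD1, had a log2 fold change of 0.79 (SE 0.44, adjusted p = 0.301 from edgeR) at 0.14 to 0.87 FPKM, and 0.42 (adjusted p = 0.346) without NC library 3.

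**Figure D5:**
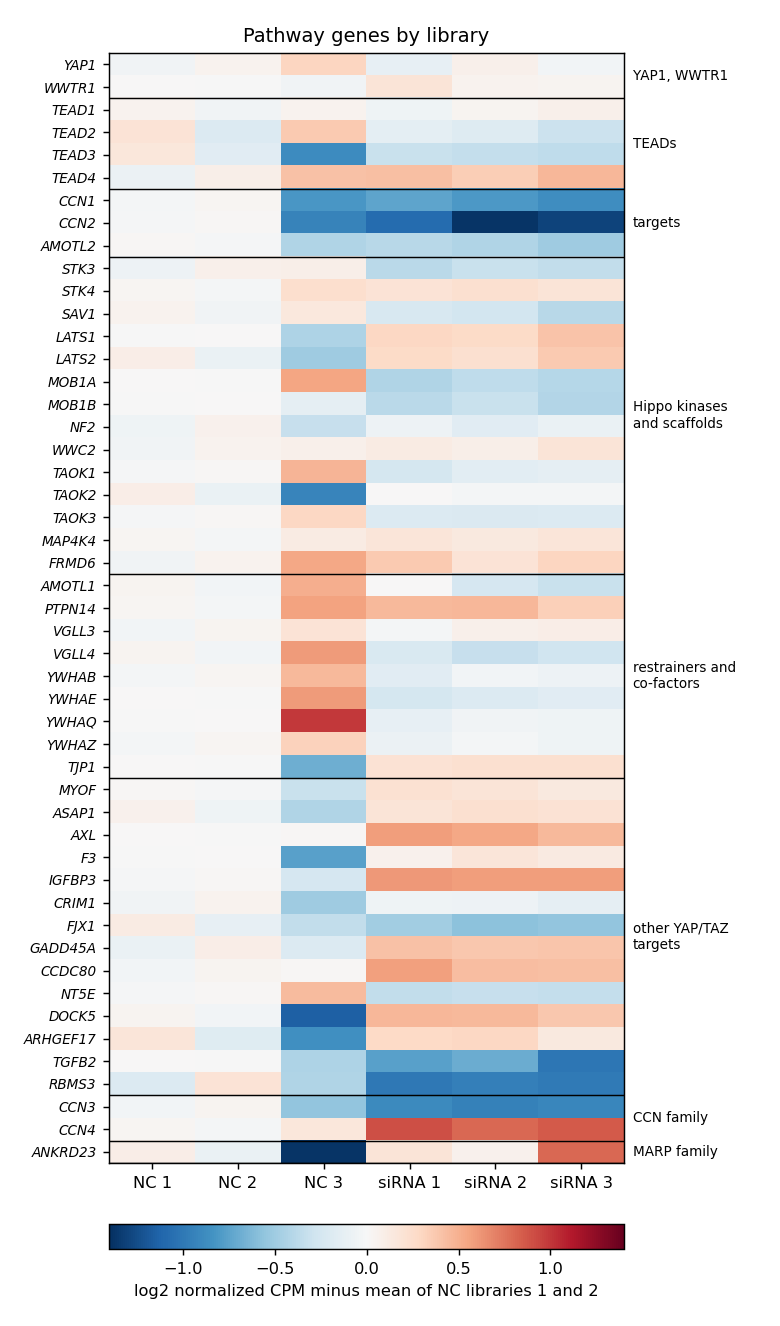
Log2 normalized CPM of each tested pathway gene in each of the 6 libraries, minus the mean of NC libraries 1 and 2, with red for higher, blue for lower and lines between the gene groups. CCN1, CCN2, AMOTL2 and CCN3 are blue in NC library 3 and in the 3 siRNA-labelled libraries, while AXL, IGFBP3 and CCN4 are red in the latter 3 and at most 0.15 in NC library 3.

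The motif was also looked for in the promoters of these lists. It was present in 6 of 13 matched genes of the other targets (LATS2, AXL, FOXF2, PTPN14, NUAK2 and TGFB2), or 46.2%. Of the Hippo kinases and scaffolds 3 of 14 held it (21.4%), and of the restrainers and cofactors 2 of 11 (18.2%). The share over all 27305 genes with a promoter was 16.7%. Among the matched CCN relatives it was in 1 of 1 (CCN6), and among the ANKRD1 relatives in 1 of 2 (ANKRD23). Of the 6 other targets with a match, FOXF2 and NUAK2 were below the filter and not tested. With all 6 libraries AXL (0.52), LATS2 (0.44) and PTPN14 (0.21) had a positive log2 fold change and TGFB2 (-0.70) a negative one. Only AXL of these passed in edgeR.

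Genes with a pattern over the 6 libraries closest to that of CCN1, CCN2 and YAP1 were found by the root mean square difference of mean-centred log2 CPM over all tested genes. For CCN1 they were QTRT1 at 0.0467, SLC22A18 at 0.0475 and GATD1 at 0.0520. For CCN2 they were CSF3 at 0.0907, UBXN11 at 0.110 and PCED1A at 0.110, so that no tested gene matched CCN2 as closely as the nearest gene matched CCN1. For YAP1 they were SDCBP2 at 0.0202, TAB3 at 0.0223 and RAD21 at 0.0232. Within the set, CCN1 was the gene ranked 44 in closeness to CCN2, at 0.217, and AMOTL2 was ranked 198 in closeness to CCN1, at 0.178. TEAD1 was the nearest of the set to YAP1, at 0.128 and rank 1374. All genes share the scaling of the 6 libraries and the distance of NC library 3 from the rest, so these are descriptions with no test.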

How the data were processed

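RNA of U87-MG cells was sequenced in 6 libraries, 3 NC and 3 labelled GRIK1 siRNA, grouped by their labels alone. Per the submitters' processing notes, cutadapt 1.9.1, HISAT2, HTSeq and GRCh38 were used. The strand setting and other versions are not given in the sources used here. The authors deposited whole-number counts per gene without normalization, and the authors deposited FPKM values computed from them with the exonic size and the total count. That formula gave 100% of the FPKM values within 0.0051. Total counts of 11099909 to 14006968 limit the precision of low genes, and the interval of the ANKRD1 ratio covers counting error only. Over all 15 pairs of libraries the mean chi-square per gene was at least 2.22, so no pair agreed within sampling noise.

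The counts were scaled by TMM and tested in edgeR 4.0.16 (R 4.3.3, quasi-likelihood test), with no covariate, above a filter of 0.5 FPKM on the mean of the 6 libraries, with Benjamini-Hochberg adjustment over all 15870 tested genes. Calls used an adjusted p under 0.05. Normalized CPM on the log2 scale used a prior count of 2. Ratios, shares and GRIK1 (pseudocount 1) were compared by two-sided exact permutation tests in scipy 1.17.1 with Python 3.11.15. The scripts were tested on simulated data. Promoters came from RefSeq. Alternatives were DESeq2 1.42.0, limma-trend 3.58.1 on log2(FPKM + 1) or log2(FPKM + 0.1), median-of-ratios scaling, other filters (none, filterByExpr, a mean of at least 1 FPKM), an absolute log2 fold change over 1, the replicate number as a block, and leaving out each library. DESeq2 and median-of-ratios scaling without NC library 3, and the alternatives for GRIK1, were chosen after seeing the data.

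The genes and lists were chosen with earlier results of these data known. Named by rule were the 10 genes, GRIK1, genes that overlap a member, the genes of each list that passed or else its highest and lowest fold change, and the 3 tested genes closest in pattern to CCN1, CCN2 and YAP1. ANKRD1 was not tested, so it has no such neighbours. Other genes of the pathway lists were named outside this rule, after their values were seen. They were genes called in DESeq2 or without NC library 3, genes with the promoter motif, and low or undetected genes with their relatives.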

Additional observations from a re-analysis of the deposited data

How the results depend on the processing

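With all 6 libraries, 490 genes passed an adjusted p under 0.05 in edgeR. The count was 224 with an absolute log2 fold change over 1, 1403 with no filter, 1684 in DESeq2 and 280 in limma-trend on log2(FPKM + 0.1). It was 0 to 5591 with 1 library left out, 4210 in DESeq2 without NC library 3 and 5594 with median-of-ratios scaling without NC library 3. The 5591 came from leaving out NC library 3, and leaving out any other gave 0 in edgeR with 2238 to 4434 genes at an unadjusted p under 0.05. Of the 9 tested genes of the set, 0 passed with all 6 libraries in edgeR. The count was 1 with no filter, 1 in DESeq2, 0 to 4 with 1 library left out, 3 in DESeq2 without NC library 3 and 4 with median-of-ratios scaling without NC library 3. The cause of these shifts was not tested.

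Same-numbered libraries deviated from their group means with correlations of -0.07, 0.04 and -0.04. These values cannot decide whether the replicate numbers pair the libraries, because the NC mean includes NC library 3. Its median absolute log2 difference from the mean of the other NC libraries was 0.507, against 0.124 between those others. It therefore weighs on the deviation of each NC library. With the replicate block, 0 genes and 0 of the 9 passed in edgeR, and 3324 genes had an unadjusted p under 0.05.

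The sign of TEAD1 was not determined. Its log2 fold change was 0.0017 with median-of-ratios scaling, 0.0231 at a mean of at least 1 FPKM, 0.0016 in DESeq2, 0.0744 and 0.0843 in limma-trend on log2(FPKM + 1) and log2(FPKM + 0.1), -0.0361 to 0.0387 with 1 library left out, 0.0204 in DESeq2 without NC library 3 and 0.0205 with median-of-ratios scaling without it. TEAD3 had 0.0269 and 0.0463 in the limma-trend fits and -0.34 to 0.15 with 1 library left out, the latter without NC library 1. The TEAD1 share differed by -0.17 to 2.26 percentage points with 1 library left out, the lowest without NC library 1. The other 7 tested genes kept their sign in each of the 16 alternatives, from -1.25 to -0.79 for CCN2 and from -0.80 to -0.42 for CCN1. ANKRD1 has a value in the fit with no filter only.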

Other observations

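Several pathway genes were at low levels or not detected in these cells. AMOT, the founding member of the angiomotin family, had 0 counts in each of the 6 libraries, which allows up to 3 counts in each, while its relative AMOTL1 was at 2.48 to 3.83 FPKM and AMOTL2 at 2.62 to 4.05 FPKM. Of the vestigial-like cofactors of TEAD, VGLL1 had 1 count in all 6 libraries together and VGLL2 stayed at 0.36 FPKM or less, while VGLL3 was at 3.61 to 4.0 FPKM and VGLL4 at 5.58 to 9.15 FPKM. The upstream scaffold WWC1 was low but detected, at 0.11 to 0.22 FPKM and 14 to 25 counts per library. Its relative WWC2 was at 3.75 to 4.67 FPKM.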
